A study of Homo sapiens with 6 samples.

Results

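Ribosome biogenesis genes were followed in imatinib-treated K562 cells that had received a miR-92a-1-5p mimic. The set was a list of 48 symbols given by name: PA2G4 and 47 genes whose products process and modify ribosomal RNA or assemble and export the ribosomal subunits. All 48 were among the 35615 symbols of the count table, and all 48 were among the 14543 genes with enough reads to test. K562 is a human erythroleukaemia line that carries the BCR-ABL1 fusion kinase, the target of imatinib. The miR92a group (n = 3 libraries, miR92a 1 to 3) was nucleofected with a synthetic hsa-miR-92a-1-5p mimic, and the scramble group (n = 3, scramble 1 to 3) with a negative-control mimic. In both groups 500 pmol of mimic went into 5 M cells, imatinib was added to 1 µM at 4 h, and total RNA was taken 24 h after that. All libraries thus came from drug-treated cells of a single line; drug-free and untransfected cells were not analysed here. The labels call the libraries biological replicates without saying whether the cultures were separate, so p-values measure the spread between these libraries.

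Ribosomes are built in the nucleolus, where RNA polymerase I transcribes a long precursor RNA. Small nucleolar ribonucleoproteins (snoRNPs) modify this precursor at many sites, the small-subunit processome folds and cuts the part that becomes the 40S subunit, and a separate set of factors matures the 60S subunit. Most of these genes are highly expressed in dividing cells and are known as targets of the transcription factor MYC. PA2G4, also called EBP1, is a growth-related RNA-binding protein of the nucleolus and cytoplasm that sits at the exit tunnel of the 60S subunit; its yeast relative Arx1 accompanies the 60S subunit out of the nucleus.

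The sequences read here are the mimic's strand and the places in the members' transcripts that its seed could pair with. Pairing itself was not measured. A microRNA recognises mRNAs mainly through its seed, bases 2 to 8, shown in capitals below. The site a seed pairs with is called an 8mer (CCCAACCA here), a 7mer-m8 (CCCAACC), a 7mer-A1 (CCAACCA) or a 6mer, in falling order of length and of usual strength. Mature miR-92a-1-5p (RefSeq, GRCh38.p14, chromosome 13, 91351324 to 91351346, plus strand) reads as follows.
hsa-miR-92a-1-5p: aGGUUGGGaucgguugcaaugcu
PA2G4 (chromosome 12, 56104319 to 56113907, plus strand, GENCODE v29 on GRCh38) held 2 sites of the 7mer or 8mer classes. Both lay in exon 13, the last exon of PA2G4-201, and in a 3′ UTR of 973 bases. They began at bases 137 and 201 of that UTR. The 30-base windows are given 5′ to 3′ with the seed match in capitals, the 7mer-m8 (56113025 to 56113031) first and the 8mer (56113089 to 56113096) second.
PA2G4 7mer-m8: cctgcccccaccccagttcCCCAACCcact
PA2G4 8mer: tcttgggaggtgaggcttCCCAACCAcgga
Of the other members, 5 held a 7mer or 8mer site, and 4 held a 6mer only. Their windows are shown because their transcripts carry the same match: HEATR1 (chromosome 1, 236549626 to 236549633, minus strand), WDR3 (the 8mer at chromosome 1, 117965171 to 117965178, plus strand), LTV1 (chromosome 6, 143863685 to 143863691, plus strand), WDR12 (chromosome 2, 202878281 to 202878287, minus strand) and WDR74 (chromosome 11, 62832346 to 62832352, minus strand).
HEATR1 8mer: cctgtggcaccctccaccCCCAACCAgtgt
WDR3 8mer: ttgcaatttagtttttatCCCAACCAaatt
LTV1 7mer-A1: tactagtaagtgtcccctgCCAACCAtctt
WDR12 7mer-m8: aaatgtctttcttaactcaCCCAACCtagg
WDR74 7mer-m8: agacctgctctcagtccgcCCCAACCtcca

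Depth was uneven. Library totals lay between 24.8 M and 26.0 M counts in 5 libraries, and miR92a 1 held 0.704 M. In miR92a 1 the members had 17 to 1045 counts, which gives a Poisson coefficient of variation of 24.3% to 3.09% from counting alone, against 353 to 37938 counts in the other libraries. The replicate 3 libraries of both groups stood apart from the rest: the embryonic globin gene HBE1 was at 6682 CPM in miR92a 3 and 6260 CPM in scramble 3 and at 2547 to 3176 CPM in the other 4 libraries (CPM, counts per 1 M of the TMM-scaled library size). Scramble 3 had the lowest value of all 6 libraries for 36 of the 48 members (75.0%), against 18.4% of all tested genes. The shallow miR92a 1 was lowest for 14.6% of the members and 35.9% of all tested genes. In that library 40.3% of all tested genes had under 10 counts and each member had at least 17, so these shares are not matched for depth. The erythroid genes of the line were present (GATA1 at 171 to 222 CPM and HBG1 at 926 to 1206 CPM), as were some lymphoid and monocyte markers. Of these, the leukocyte gene PTPRC was at 129 to 306 CPM, LYZ at 10.2 to 57.9 CPM and CD68 at 9.52 to 17.7 CPM. The T cell gene CD3E (0 to 1.18 CPM) and the monocyte gene CD14 (0.0395 to 1.36 CPM) were low, and the B cell gene MS4A1 was at 0 in all 6 libraries.

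PA2G4 fell with the mimic and was the only member that changed in the fit on group alone. It had 215, 195 and 153 CPM in miR92a 1, 2 and 3, against 556, 560 and 472 CPM in scramble 1, 2 and 3. The groups did not overlap, and the highest mimic library lay far below the lowest scramble library. The mean was 188 ± 31.5 CPM with the mimic and 529 ± 49.7 CPM with scramble (SD, n = 3 each), so the scramble mean was 2.82 times the mimic mean. The log2 fold change was -1.52 ± 0.14 (SE; edgeR quasi-likelihood test with Benjamini-Hochberg adjustment over all 14543 genes, adjusted p = 0.0023). The same-numbered pairs gave log2 differences of -1.37, -1.52 and -1.62, all 3 in the same direction. In bulk RNA a lower share of expressing cells and less RNA per cell cannot be told apart. The 4 pseudogene rows that carry the PA2G4 name held 0 to 2 counts per library, and adding them left the log2 fold change at -1.52. Pseudogenes under other names, and pseudogene reads assigned to PA2G4 itself, were not checked.

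**Figure D1:**
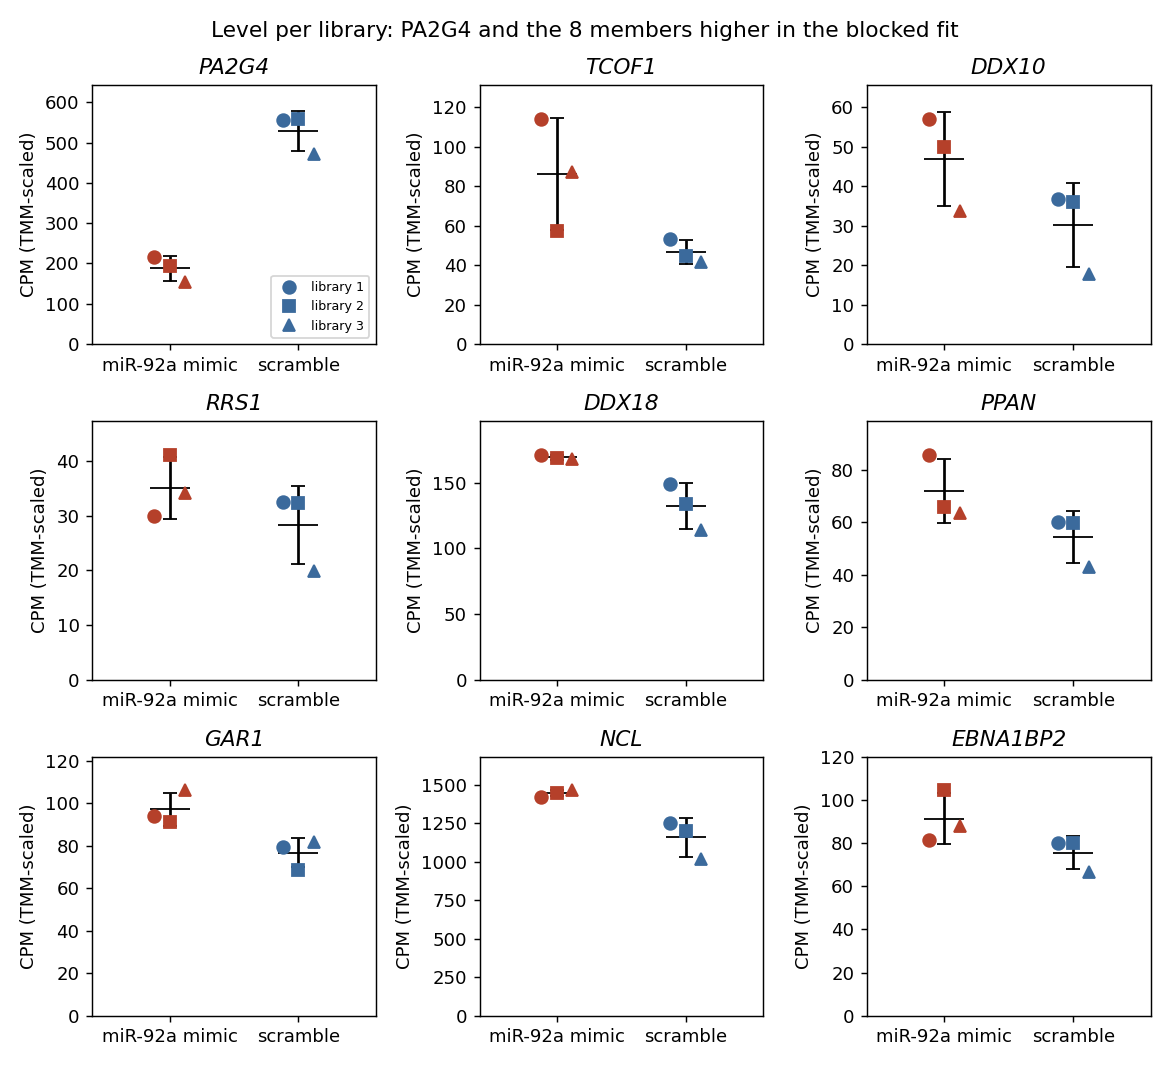
Level of 9 members in each library, in TMM-scaled CPM (linear axes from 0), with the miR-92a mimic group left of scramble; symbols are libraries 1 to 3, and horizontal and vertical bars are the mean and SD (n = 3). PA2G4 lay at 153 to 215 CPM with the mimic and at 472 to 560 CPM with scramble. The other 8 genes had higher means with the mimic, and all of them but GAR1 had their lowest value in scramble 3.

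The other 47 members did not follow PA2G4. With group alone, 1 of 48 members was lower (0.976% of all tested genes were) and 0 were higher (0.433% of all tested genes). At an unadjusted p under 0.05 in edgeR, 2 members were lower (7.51% of all tested genes) and 6 were higher (6.0%). Of the 7623 genes with a mean CPM of 21 or more, 1.77% were called lower and 0.800% higher on group alone. That floor is the lowest member's mean rounded down and does not match levels, since the members' median was 92.1 CPM. DESeq2 called PA2G4 lower (1.66% of all tested genes) and TCOF1 higher (0.942%), and limma-voom called PA2G4 lower (1.25%) and 0 members higher (0.639%). The median log2 fold change over the 48 members was 0.08, against -0.01 over all tested genes, and 38 of the 48 (79.2%) had a positive value, against 48.3% of all tested genes. Without scramble 3 the members' median was -0.01 and 23 of the 48 were positive. Non-overlapping groups with higher values under the mimic were seen in 11 members (22.9%, against 9.73% of all tested genes). Lower values without overlap were seen in 3 members (6.25%, against 11.5%), PA2G4, LTV1 and NPM1. The shares over all tested genes include many genes with few counts in miR92a 1 and are not matched to the members for depth.

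Replicate numbers were treated as pairs in a further fit. Same-numbered libraries deviated together, but this was clear only for replicate 3, so the pairing is uncertain. With this replicate block 8 of the 48 members rose (16.7%) and 1, PA2G4, fell. Of all tested genes 4.57% were higher and 6.70% lower in that fit. Among the 7623 genes with a mean CPM of 21 or more, 7.53% were higher and 9.62% lower. The 8 members were TCOF1, DDX10, RRS1, DDX18, PPAN, GAR1, NCL and EBNA1BP2. None of them passed in the fit on group alone, where their edgeR adjusted p ran from 0.151 for TCOF1 to 0.533 for RRS1. Each of the 8 except GAR1 had its lowest value of all libraries in scramble 3. Leaving out a pair kept 4 libraries, with 1 degree of freedom left to measure spread, so the calls of these fits are weak evidence. Their adjusted p can be extreme (3.3e-85 for PA2G4 without pair 3, edgeR). TCOF1 and DDX10 were called in each of the 3 blocked fits. NCL, DDX18, GAR1 and EBNA1BP2 were called without pair 1 and without pair 3. Without pair 2 these genes were not called (adjusted p = 0.063, 0.062, 0.26 and 0.44, edgeR). PPAN was called only without pair 2 and RRS1 only without pair 1. NOP2, which did not pass with all pairs, was also called higher without pair 2 (adjusted p = 0.0078). In all, 7, 4 and 6 of the 48 members (14.6%, 8.33% and 12.5%) were called higher without pair 1, 2 and 3. Over all genes tested in those fits, 3.29%, 1.95% and 3.81% were called higher without pair 1, 2 and 3, and 5.08%, 3.75% and 5.95% lower.

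Some values carry a limit of annotation. For 10 members, BRIX1, FTSJ3, GNL3, HEATR1, NHP2, NIP7, NOP16, TSR1, UTP15 and WDR12, a gene on the opposite strand shares exon bases and held counts above 10% of the member's own. Whether the counting used strand is unstated, so reads from those bases cannot be told apart and these 10 values are uncertain. None of the 10 was called in either fit. PA2G4, LTV1, NOP2, RRS1 and WDR74 share exon bases with other protein-coding genes annotated on the same strand. Those genes are absent from the count table, so their reads could not be checked. The same holds for an antisense gene that overlaps PA2G4.

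**Figure D2:**
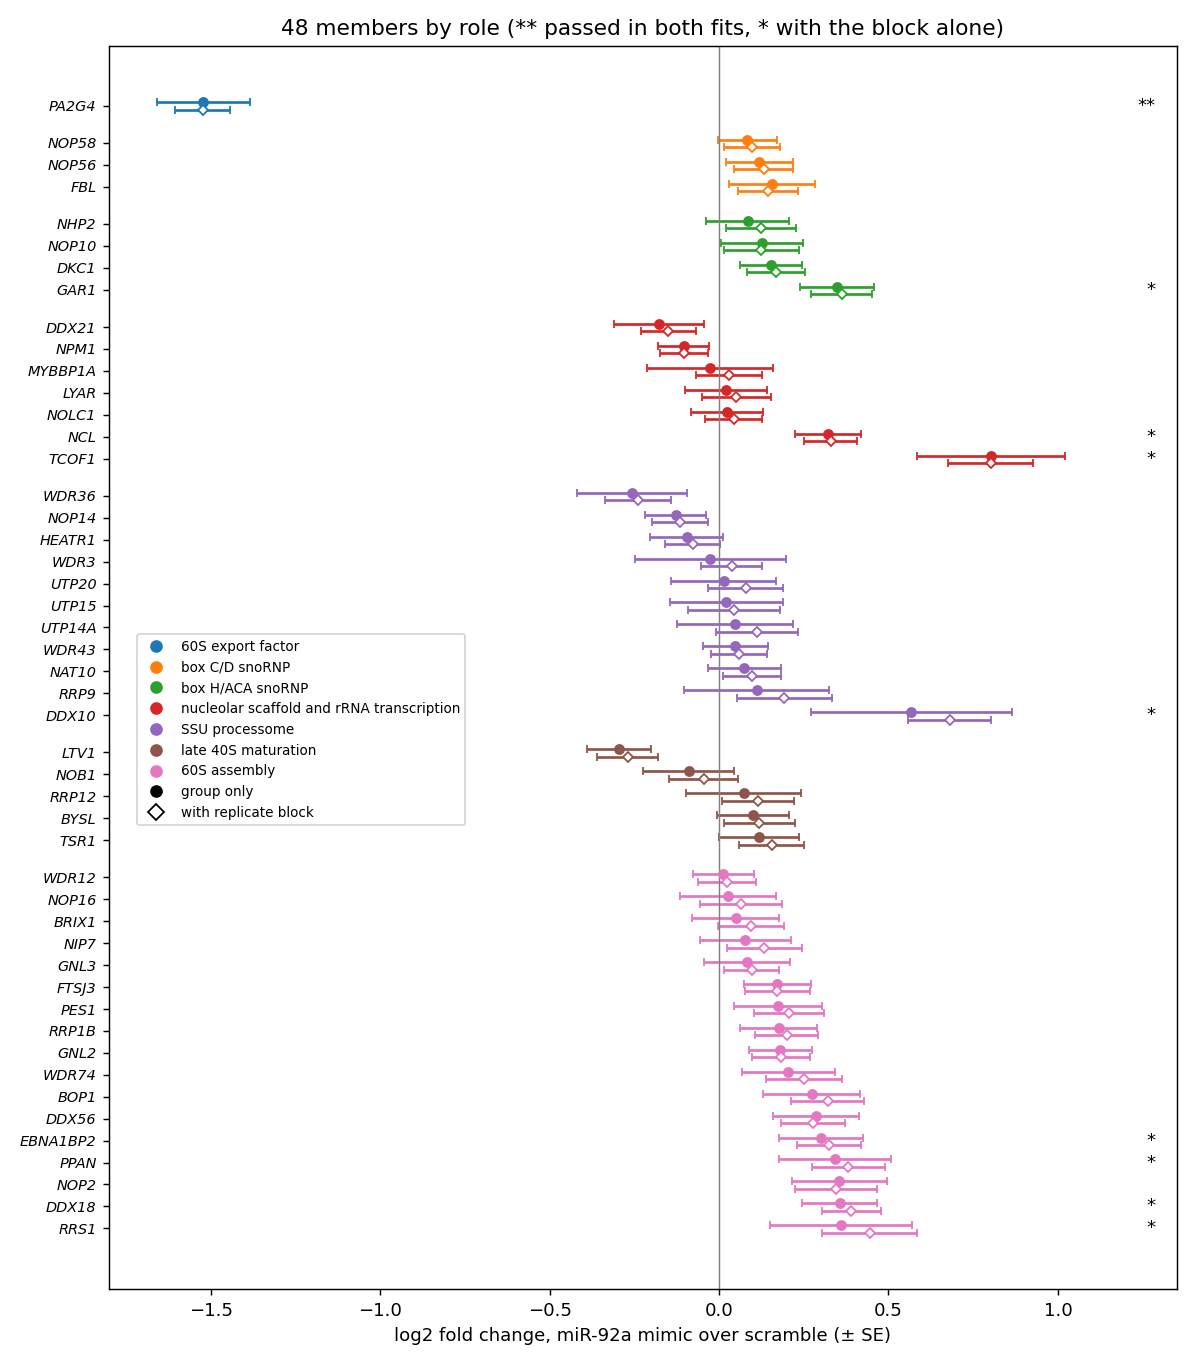
Log2 fold change of all 48 members, miR-92a mimic over scramble, with its SE, by role; filled circles are the fit on group alone and open diamonds the fit with the replicate block. PA2G4 stands at -1.52, the remaining 47 lie between -0.30 and 0.80 in the fit on group alone, and the 8 members with a single asterisk passed with the block alone.

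Among the core snoRNP proteins no member passed on group alone, and all 7 had positive log2 fold changes. The box C/D proteins, which act in 2′-O-methylation of ribosomal RNA, were represented by the methyltransferase FBL (fibrillarin) and its partners NOP56 and NOP58, at 0.16 ± 0.13, 0.12 ± 0.10 and 0.08 ± 0.09 (SE). FBL had 201, 205 and 277 CPM in miR92a 1, 2 and 3, against 204, 204 and 213 CPM in scramble 1, 2 and 3, and only miR92a 3 lay clearly above the scramble values. The box H/ACA proteins, which act in pseudouridylation, were the pseudouridine synthase DKC1 (0.15 ± 0.09), NOP10 (0.13 ± 0.12), NHP2 (0.08 ± 0.12) and GAR1 (0.35 ± 0.11). GAR1 had 93.9, 91.1 and 106 CPM in miR92a 1, 2 and 3, against 79.5, 68.8 and 81.6 CPM in scramble 1, 2 and 3. Its groups did not overlap, and it rose with the block by 0.36 ± 0.09 (adjusted p = 0.011, edgeR) but not without it (adjusted p = 0.207). 

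The nucleolar scaffold and transcription-linked members went both ways. TCOF1, the protein treacle that couples RNA polymerase I transcription to early processing, had 114, 57.5 and 87.4 CPM in miR92a 1, 2 and 3, against 53.2, 44.8 and 41.8 CPM in scramble 1, 2 and 3. The mimic libraries were all above the scramble libraries but spread widely, and miR92a 2 lay just above scramble 1. Its log2 fold change was 0.80 ± 0.22 without the block (adjusted p = 0.151) and 0.80 ± 0.13 with it (adjusted p = 2.2e-04, edgeR), and 0.83 by DESeq2 (adjusted p = 0.0047). By limma-voom it was 0.65 and did not pass (adjusted p = 0.169). With a library left out, TCOF1 passed on group alone only without miR92a 2 (log2 fold change 1.06, adjusted p = 0.0493, edgeR); without each of the other 5 the adjusted p was 0.231 to 0.396. NCL (nucleolin), an abundant RNA-binding protein of the nucleolus, had 1422, 1448 and 1463 CPM in miR92a 1, 2 and 3, against 1253, 1201 and 1017 CPM in scramble 1, 2 and 3. The mimic libraries were close to each other and above each scramble library; the log2 fold change was 0.32 ± 0.10 (adjusted p = 0.192) and with the block 0.33 ± 0.08 (adjusted p = 0.0082, edgeR).

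NPM1 (nucleophosmin), the main protein of the granular nucleolus, had 1079, 1131 and 1100 CPM in miR92a 1, 2 and 3, against 1212, 1170 and 1180 CPM in scramble 1, 2 and 3. The groups did not overlap, but the difference was small, with a log2 fold change of -0.10 ± 0.08 that passed in neither fit (adjusted p = 0.63 on group alone, edgeR). Its 45 pseudogene rows held at most 0.330% of the summed reads. The RNA helicase DDX21 was at -0.18 ± 0.13, with 390, 387 and 343 CPM in miR92a 1, 2 and 3, against 475, 448 and 339 CPM in scramble 1, 2 and 3. Its scramble libraries spread so widely that scramble 3 was the lowest of the 6. The Pol I regulator MYBBP1A, the growth-linked LYAR and the snoRNP chaperone NOLC1 had log2 fold changes of -0.03, 0.02 and 0.02 and passed in neither fit.

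Of the 11 members of the small-subunit processome, which assembles on the precursor RNA, 0 passed on group alone, with 7 positive and 4 negative log2 fold changes and a median of 0.02. DDX10, an RNA helicase of early 40S processing, had the largest value. It was measured at 57.1, 50.0 and 33.8 CPM in miR92a 1, 2 and 3, against 36.7, 36.0 and 17.8 CPM in scramble 1, 2 and 3. The groups overlapped because miR92a 3 lay below scramble 1 and 2. Each replicate 3 library was the lowest of its group, while within each pair the mimic library was higher, by 0.63, 0.47 and 0.90 on the log2 scale. Its log2 fold change was 0.57 ± 0.30 without the block (adjusted p = 0.47) and 0.68 ± 0.12 with it (adjusted p = 9.5e-04, edgeR). The lowest value in this role was that of WDR36, a scaffold protein with WD repeats, at -0.26 ± 0.16, with 81.6, 63.0 and 51.4 CPM in miR92a 1, 2 and 3, against 81.4, 75.6 and 64.7 CPM in scramble 1, 2 and 3. These groups overlapped and the value passed in neither fit. NOP14, UTP14A, UTP15, UTP20, HEATR1, WDR3, WDR43, the U3 snoRNP protein RRP9 and the cytidine acetyltransferase NAT10 lay between -0.13 and 0.11.

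The 5 factors of late 40S maturation gave no call on group alone and none with the block. LTV1, an assembly factor released as the 40S subunit matures, had 80.3, 83.6 and 82.7 CPM in miR92a 1, 2 and 3, against 108, 103 and 92.9 CPM in scramble 1, 2 and 3. The groups did not overlap, and the log2 fold change was -0.30 ± 0.09 (adjusted p = 0.216; with the block -0.27 ± 0.09, adjusted p = 0.06, edgeR). Without the replicate 3 pair the blocked fit called LTV1 lower (adjusted p = 0.0031, edgeR), and also DDX21, under the limit of such fits given above. The endonuclease NOB1, which makes the final cut of the 18S RNA, was at -0.09 ± 0.13, and TSR1, BYSL and RRP12 lay between 0.07 and 0.12.

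All 17 factors of 60S assembly had positive log2 fold changes on group alone, with a median of 0.18 and a range of 0.01 to 0.36, but 0 passed. Without scramble 3, 12 of the 17 were positive, and without miR92a 2, 16 of the 17. With the block 4 rose and none fell. The helicase DDX18 had 171, 168 and 168 CPM in miR92a 1, 2 and 3, against 149, 133 and 114 CPM in scramble 1, 2 and 3. The mimic libraries were nearly equal and above each scramble library, and the blocked log2 fold change was 0.39 ± 0.09 (adjusted p = 0.0056, edgeR). EBNA1BP2, a partner in early 60S particles, had 81.6, 104 and 87.9 CPM in miR92a 1, 2 and 3, against 80.0, 80.0 and 66.6 CPM in scramble 1, 2 and 3. In this gene miR92a 1 lay only just above scramble 2, on 60 counts; the blocked log2 fold change was 0.32 ± 0.09 (adjusted p = 0.031, edgeR).

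PPAN, a factor for maturation of the large-subunit RNAs, had 85.7, 65.9 and 63.5 CPM in miR92a 1, 2 and 3, against 60.2, 59.8 and 43.0 CPM in scramble 1, 2 and 3, and rose with the block by 0.38 ± 0.11 (adjusted p = 0.024, edgeR). Its value is uncertain, since the readthrough transcript PPAN-P2RY11 and the gene P2RY11 share exon sequence with it and held counts equal to 12.2% and 15.4% of its own. RRS1, which brings the 5S RNA particle into the 60S precursor, had 29.9, 41.2 and 34.1 CPM in miR92a 1, 2 and 3, against 32.5, 32.3 and 20.0 CPM in scramble 1, 2 and 3. These groups overlapped, with only 22 counts behind miR92a 1, and the blocked log2 fold change was 0.45 ± 0.14 (adjusted p = 0.045, edgeR). The members of the PeBoW complex, which is needed for 60S precursor processing, did not pass in either fit: BOP1 was at 0.27 ± 0.14, PES1 at 0.17 ± 0.13 and WDR12 at 0.01 ± 0.09. The methyltransferase NOP2 was at 0.35 ± 0.14, the nucleostemin gene GNL3 at 0.08 ± 0.13 and its relative GNL2 at 0.18 ± 0.09. DDX56, FTSJ3, RRP1B, WDR74, NIP7, BRIX1 and NOP16 lay between 0.03 and 0.29.

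The members' shift towards higher values lay mainly in the replicate 3 pair. In pair 1 the median log2 difference over the 48 members was -0.05 and 18 were higher with the mimic. In pair 2 the median was 0.03 and 29 were higher, and in pair 3 the median was 0.33 and 43 were higher. All tested genes had pair medians of -0.07, 0.00 and -0.01. Set against the mean of the scramble libraries, the members' median was 0.05, 0.12 and 0.10 in miR92a 1, 2 and 3, and 0.11, 0.08 and -0.19 in scramble 1, 2 and 3. The mimic libraries thus lay at the level of scramble 1 and 2, and scramble 3 lay below the other 5. What set scramble 3 apart was not tested; HBE1, given above, was high in both replicate 3 libraries, and its part in this was not tested. PA2G4 was far below the members' median in all 3 pairs.

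**Figure D3:**
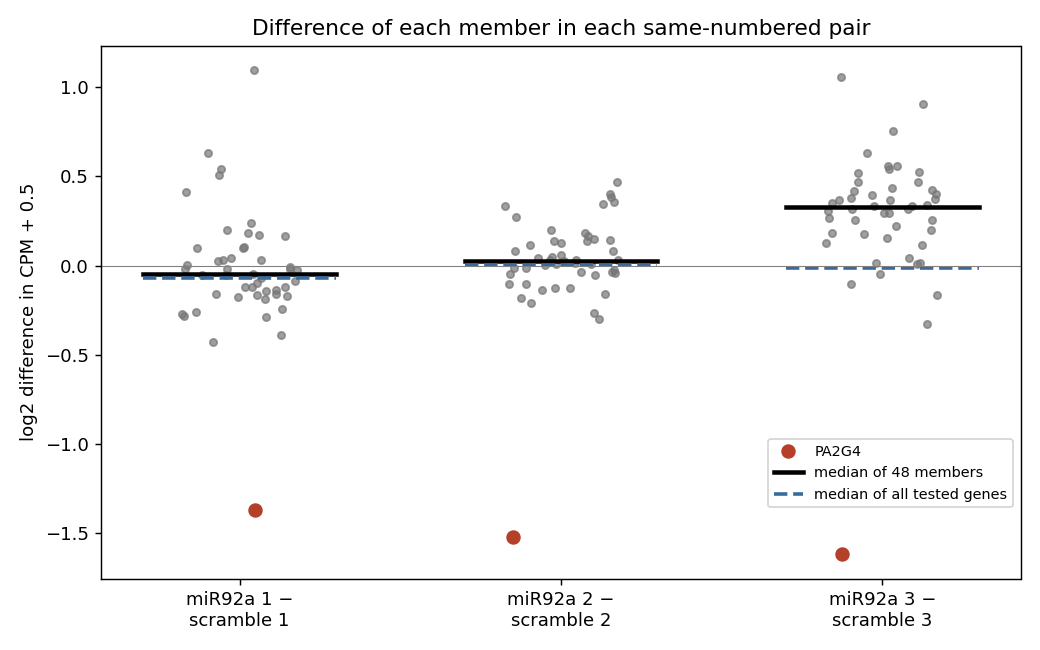
Difference of each of the 48 members within each same-numbered pair, mimic minus scramble, as log2 of CPM + 0.5; grey points are members, red points PA2G4, the black bar the members' median and the dashed bar the median of all tested genes. The members' median was -0.05, 0.03 and 0.33 in pairs 1, 2 and 3, while PA2G4 lay between -1.37 and -1.62.

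Of the 6 members with a 7mer or 8mer seed match in the 3′ UTR, 1 fell. A 7mer or 8mer match was present in the longest annotated 3′ UTR of 6 of the 48 members (12.5%), against 16.9% of the 12888 tested genes for which a 3′ UTR is annotated. The members' 3′ UTRs were short, with a median of 516 bases against 1327 bases over all tested genes. HEATR1, with the 8mer shown above, had 205, 200 and 182 CPM in miR92a 1, 2 and 3, against 223, 220 and 181 CPM in scramble 1, 2 and 3, and these groups overlapped. WDR3 held an 8mer and a 7mer-m8 as PA2G4 does, but at bases 5724 and 6815 of a 3′ UTR of 7095 bases; its log2 fold change was -0.03 ± 0.22. WDR12 and WDR74, with a 7mer-m8 each, were at 0.01 ± 0.09 and 0.20 ± 0.14. LTV1, with a 7mer-A1 at base 158 of a 3′ UTR of 285 bases, had the lowest log2 fold change after PA2G4. The median was -0.03 over the 5 members other than PA2G4 with a 7mer or 8mer match. It was 0.11 over the 42 members without one, of which 4 held a 6mer only. The same medians over all tested genes were -0.13 and 0.01. None of the 8 members that rose with the block held a 7mer or 8mer match. Which 3′ UTR ends these cells use was not measured, so a site late in a long UTR may not be in the transcript. PA2G4 held no match to the seed of the partner strand miR-92a-3p in its 3′ UTR.

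**Figure D4:**
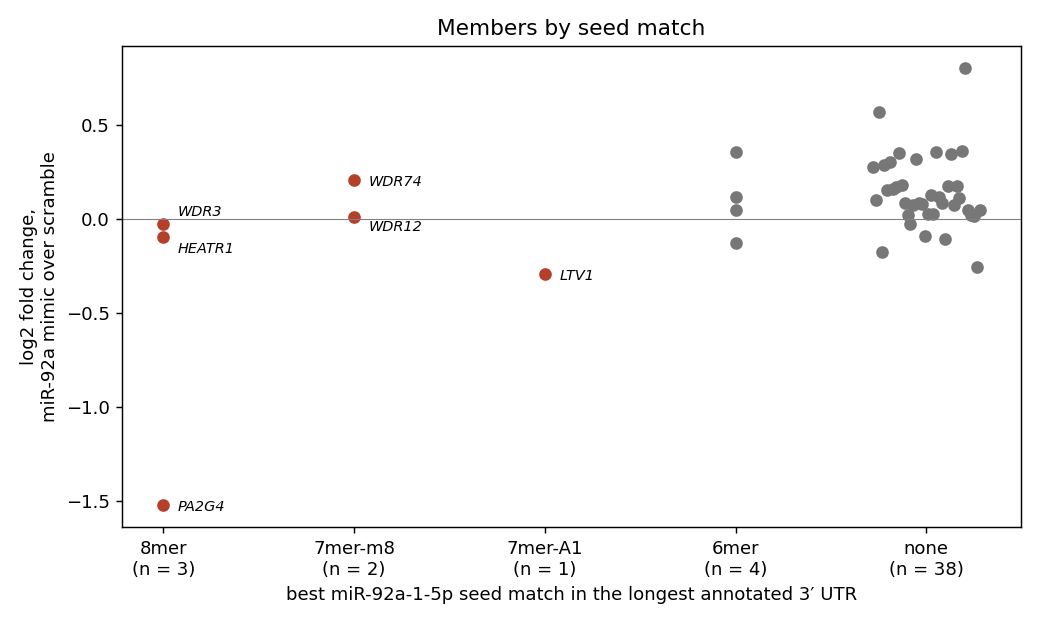
Log2 fold change of the 48 members, miR-92a mimic over scramble (fit on group alone), by the best miR-92a-1-5p seed match in the longest annotated 3′ UTR; red points are members with an 8mer, 7mer-m8 or 7mer-A1 and are named. PA2G4, at -1.52, is the only one of the 6 that stands away from the members without a match.

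Of 99 further ribosome biogenesis genes, all of which were tested, 1 fell on group alone and 0 rose (0.976% and 0.433% of all tested genes). At an unadjusted p under 0.05 in edgeR, 1 was lower and 14 were higher (7.51% and 6.0% of all tested genes). DESeq2 and limma-voom each called the same gene lower (1.66% and 1.25% of all tested genes) and 0 higher (0.942% and 0.639%). The log2 fold change was positive in 68.7% of the 99 genes, and the median in pair 3 was 0.19. The gene that fell was ISG20L2, a nucleolar exonuclease that trims the 5.8S RNA precursor (chromosome 1, 156721891 to 156728799, minus strand). It had 28.6, 30.7 and 27.5 CPM in miR92a 1, 2 and 3, against 60.8, 65.2 and 45.4 CPM in scramble 1, 2 and 3. The groups did not overlap, and the log2 fold change was -0.98 ± 0.16 (adjusted p = 0.026, edgeR), a call that was lost without any single library other than scramble 3 (adjusted p up to 0.114). Its longest 3′ UTR, of 1458 bases, held a 7mer-m8 at base 223, shown here because ISG20L2 fell (chromosome 1, 156723120 to 156723126).
ISG20L2 7mer-m8: gaaagccttcacgtcagaaCCCAACCctat
With the block 11 of the 99 rose (11.1%) and 1 fell, against 4.57% and 6.70% of all tested genes. The 8 with the largest log2 fold changes, chosen after their values were seen, included the 60S factors TMA16 (0.54 ± 0.13 with the block), RSL24D1 (0.40 ± 0.10), the helicase DDX54 (0.35 ± 0.09), ZNF622 (0.33 ± 0.11) and NOC2L (0.33 ± 0.08). They also included the 40S factors NOC4L (0.46 ± 0.14) and RRP36 (0.32 ± 0.10) and the exosome subunit EXOSC3 (0.37 ± 0.10), which belongs to the complex that trims ribosomal RNA 3′ ends. None of these passed on group alone. Leaving out pair 1, 2 and 3, the blocked fit called 3, 1 and 6 of the 99 higher (3.03%, 1.01% and 6.06%), against 3.29%, 1.95% and 3.81% of all genes tested in those fits. ZNF622 and RRP36 were called in none of the 3.

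Promoters were read for a motif that the choice of members did not use. The E-box CACGTG, the DNA word that MYC and related factors bind and which reads the same on both strands, was sought from 250 bases before to 50 bases after the start site (RefSeq, GRCh38.p14). It was present in 19 of the 40 members with a promoter sequence (47.5%), against 12.6% of 10265 tested genes and 8.77% of all 27305 promoters, and in 26 of 83 promoters of the further pathway genes (31.3%). The windows of 4 members with many reads are shown 5′ to 3′ on the gene's strand, with the E-box in capitals: DDX21 (chromosome 10, 68956616 to 68956621), FBL (chromosome 19, 39846368 to 39846373), NAT10 (chromosome 11, 34105614 to 34105619) and GNL3 (chromosome 3, 52686038 to 52686043).
DDX21: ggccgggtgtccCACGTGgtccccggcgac
FBL: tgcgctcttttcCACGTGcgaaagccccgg
NAT10: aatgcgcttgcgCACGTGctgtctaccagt
GNL3: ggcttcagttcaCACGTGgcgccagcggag
Members with and without the E-box had the same median log2 fold change to 2 decimals, 0.08 for both. PA2G4, NCL and NPM1 did not have these letters in the window.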

How the data were processed

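The authors deposited expected counts, that is kallisto estimates of reads per gene symbol for 6 libraries, as whole numbers with no scaling; kallisto is named in the labels' protocols and GRCh38 in the submitters' processing notes. The average coverage they state is 62 M. The kallisto version, annotation, strand setting and gene summary step are not given in the sources used here. Counts were filtered with filterByExpr (14543 of 35615 symbols), scaled by TMM and tested with edgeR 4.0.16 (quasi-likelihood, group alone, R 4.3.3), with Benjamini-Hochberg adjustment over all tested genes and a threshold of 0.05; the code was tested on simulated data. The edgeR SE is the size of the log2 fold change over the root of its F statistic. CPM are not divided by gene length, so levels are compared within a gene only.

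Replicate numbers come from the labels, which do not say what they share. Over all tested genes, libraries of the same number deviated from their groups with correlations of 0.15, 0.16 and 0.42, so the fit with the number as a block is also given. miR92a 2 correlated with scramble 1 as well (0.10), so pairing beyond replicate 3 is not shown. Alternatives were DESeq2 1.42.0, limma-voom (limma 3.58.1), other scalings and filters, pseudogene reads added, and each library left out; the blocked fit without each pair was added after the values were seen. The members and lists were chosen with earlier results of these data known. Named were PA2G4, members called in either fit, the 6 with the highest mean CPM, the 3 highest and 3 lowest fold changes, those with seed matches, and called genes of a wider list of the pathway; other members are given by role. Seed matches were read from GENCODE v29 transcripts. Of the 99 wider pathway symbols, 4 were matched through RefSeq synonyms. The value of 1 marker gene is not reported here.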

Additional observations from a re-analysis of the deposited data

How the results depend on the processing

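PA2G4 kept its direction and its call under all 17 alternatives run, with a log2 fold change between -1.61 and -1.39 and an adjusted p of at most 0.0221 (edgeR, DESeq2 or limma-voom). It was the 1 member called lower in each alternative except the blocked fit without the replicate 3 pair, which called 3 (with DDX21 and LTV1). The number of members called higher was 0 on group alone, 8 with the replicate block and 1 with DESeq2. It was 0 to 1 with each library left out in turn. In the blocked fit it was 7, 4 and 6 without the pair of replicate 1, 2 and 3, on 4 libraries each. Of the 99 further pathway genes, the number called lower was 1 with all libraries and 0 to 1 with each library left out, and 2 in the blocked fit without the replicate 3 pair. The number called higher was 0 on group alone, 11 with the block, 0 to 1 with each library left out, and 3, 1 and 6 in the blocked fit without the pair of replicate 1, 2 and 3. The members' median log2 fold change lay between -0.01 and 0.14 with a library left out, the lowest without scramble 3. The log2 fold change of NOLC1, at 0.02, lay between -0.068 (without scramble 3) and 0.073 with a library left out, and was -0.051 in the blocked fit without the replicate 3 pair. With any annotated 3′ UTR in place of the longest, 7 members held a 7mer or 8mer match in place of 6, MYBBP1A being added. Scaling by median of ratios or by total counts, the filters and the addition of pseudogene reads changed no count of members called. The causes were not tested. Depth limits miR92a 1, where 3 counts stand for 4.08 CPM, against 0.115 to 0.125 CPM in the other libraries; leaving it out called no further member.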

Other observations

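Coding sequences of the members rarely held the seed match: 6 of the 48 members had a 7mer or 8mer match there (12.5%), against 22% of the tested genes for which a 3′ UTR is annotated. The 6 members were BRIX1, DDX56, HEATR1, UTP20 and WDR3 with 1 match each and the Pol I regulator MYBBP1A with 2. None of them passed in either fit. PA2G4 held none in its coding sequence.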
